A study of Homo sapiens with 15 samples.

Results

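The comparison described here sets IMR32 cells induced to express MSX1 and harvested at t = 48 against cells at t = 0. It uses 6 of the 15 expression arrays of the series, the 3 labelled t = 48 without the word control and the 3 labelled t = 0, and covers 12880 genes. IMR32 is an established human neuroblastoma cell line, grown here in DMEM with 10% fetal calf serum. According to the labels all 15 arrays hold IMR32 cells with an inducible MSX1 gene. Doxycycline was added to the medium of the induced cells, and the control cells, harvested at t = 48, were grown alike without it. No unit of time is given in the labels. Cells at t = 0 and induced cells at t = 48 differ in doxycycline and in time in culture together, so each change below holds both. The 3 control arrays at t = 48 were therefore set beside them for the main genes. Cells lacking the inducible gene were not measured under doxycycline. Whether the 3 arrays of a group stand for separate cultures, or the line for 1 clone, is not stated, and the spread behind the p-values may therefore be technical.

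Neuroblastoma arises from the sympathetic branch of the neural crest, and its cells can resemble noradrenergic neuroblasts or carry a more mesenchymal program. MSX1 is a homeodomain transcription factor, mostly a repressor, that is active in neural crest, limb and craniofacial tissue and is itself a target of bone morphogenetic proteins (BMPs). BMP signals pass through SMAD proteins to the ID genes, whose products bind and block basic helix-loop-helix (bHLH) factors. The proneural bHLH factors that ID proteins hold back drive cell cycle exit and neuronal differentiation, and Notch signalling opposes them through HES and HEY repressors.

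Values are array signals on a linear scale, and a change is a log2 fold change, the difference of mean log2(signal + 5.16) between groups, so a value of 1 means a 2-fold rise for bright genes, and the scale understates the change of dim ones. Rose, fell and passed mean an adjusted p below 0.05 in limma's moderated test with Benjamini-Hochberg adjustment over the 12880 genes. Array medians lay between 19.4 and 21.1 at induced t = 48 and between 18.8 and 22.6 at t = 0. The 3' to 5' ratio of the ACTB control probe sets, which rises as RNA degrades, was 1.27 to 1.52 at induced t = 48 and 1.18 to 1.39 at t = 0, and that of GAPDH 0.962 to 1.09 and 0.991 to 1.09. The bioC hybridisation control was weak on induced t = 48 replicate 3, at 121.65 against 449 or more on all other arrays but 1 at induced t = 24. The 3' probe set of 18S rRNA read 646.5 on t = 0 replicate 3 against 172.9 or less on the other arrays compared here. Counts without induced replicate 3 and without t = 0 replicate 3 are given below. Beyond that, the part of these values in the results was not tested.

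MSX1 was followed first, as the gene the labels name. Its brighter probe set read 115.6, 121.5 and 95.5 at t = 0, 96.9, 67.7 and 84.9 at induced t = 48 and 46.5, 50.2 and 55.5 in control cells. The induced arrays overlapped t = 0 and lay below it on average (-0.40, SE 0.15, adjusted p = 0.0777), while all 3 lay above all control arrays (difference 0.65, adjusted p = 0.0165). The dimmer probe set read 24.3, 32.2 and 34.6 at t = 0, 10.3, 9.2 and 20.2 at induced t = 48 and 22.8, 28.4 and 9.1 in control cells. Its induced arrays lay below all t = 0 arrays. This fall passed in limma's test of every kept probe set (-0.99, adjusted p = 0.042). Between the cultures the dimmer probe set overlapped and was lower on average in induced cells (difference -0.42), opposite to the brighter one. MSX1 signal was thus not raised over t = 0, and it is not known here if the introduced sequence holds the target of either probe set.

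Between t = 0 and induced t = 48, 2331 of the 12880 genes passed (18.1%), 1275 of them higher (9.9%) and 1056 lower (8.2%). Changes of at least 2-fold were mostly rises, with 213 genes higher (1.65%) and 76 lower (0.59%), and 30 genes rose (0.233%) and 5 fell (0.0388%) by at least 4-fold. The median change over all genes was -0.02. The induced and t = 0 arrays did not overlap in 4790 of the 12880 genes (37.2%), and in 2311 of the 2331 that passed. Separate ranges of these 2 groups therefore add little to a call. The 5 genes that fell at least 4-fold were ID1, LMO4, SLIT3, LINC02593 and ID3, and the 2 largest rises were those of ENPP2 and HEY1. The direction of calls changed with signal. Among genes with a mean signal from 20 to 100, 404 rose and 169 fell, and among those of 500 or more, 166 rose and 373 fell. Both splits moved with scaling. The dimmer genes gave 312 rises and 246 falls when each array was centred on its median and 306 and 253 after quantile normalization, and the brighter ones 105 and 496 and 222 and 284. Over all genes the centred values gave 939 rises and 1519 falls. With 1 array left out, 1505 to 1968 genes passed, the fewest without induced replicate 3, and 1117 passed when the 2 groups were fitted without the other arrays.

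**Figure D1:**
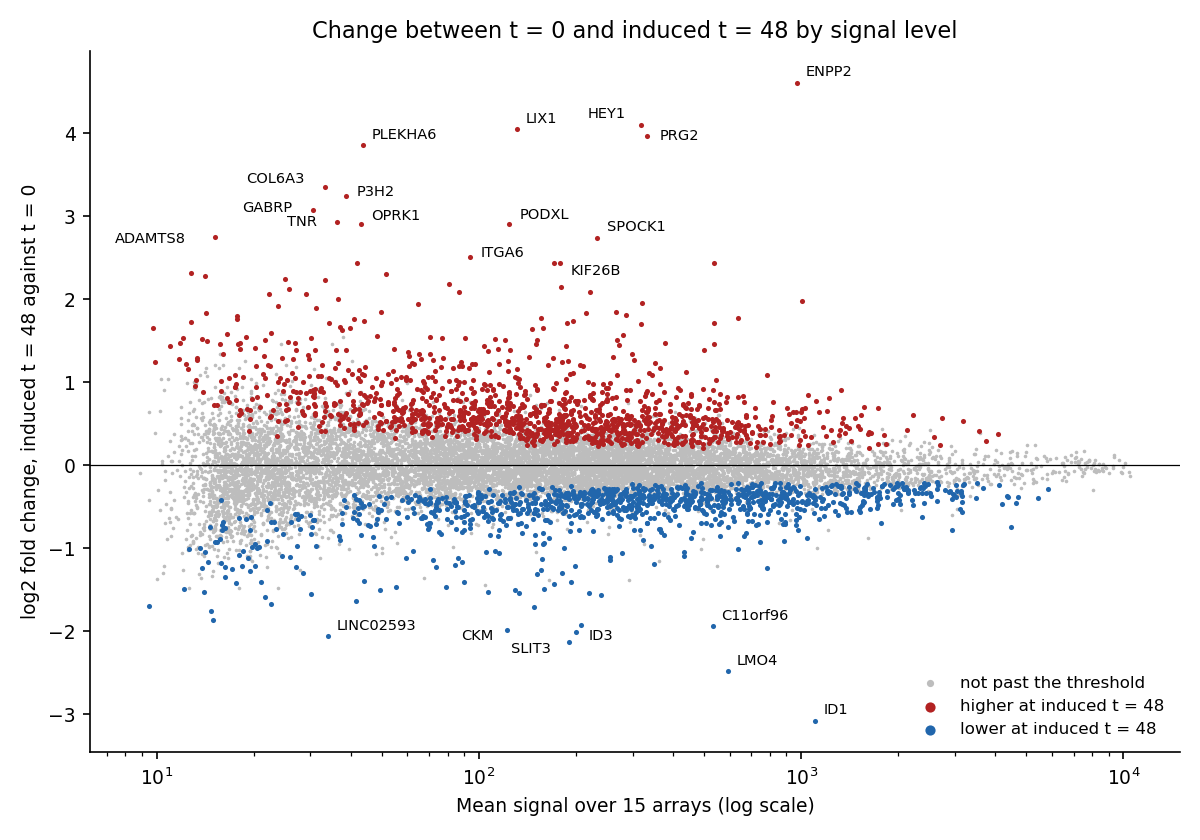
Each point is 1 of the 12880 genes, with its mean signal over the 15 arrays on a log scale along the horizontal axis and its log2 fold change between t = 0 and induced t = 48 on the vertical axis. Red points (1275) rose and blue points (1056) fell past an adjusted p of 0.05, and the points reach higher above the zero line (4.61 for ENPP2) than below it (-3.08 for ID1).

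ENPP2 rose most of all genes tested. It encodes autotaxin, a secreted enzyme that makes the signalling lipid lysophosphatidic acid. Its signal was 135.1, 113 and 159.5 at t = 0 and 3503, 3352.8 and 3374.2 at induced t = 48, a change of 4.61 (SE 0.19, adjusted p = 2.38e-08). In control cells at t = 48 it read 305.6, 403.3 and 587, also above every t = 0 array (1.59, adjusted p = 0.00234) but below every induced one (difference 3.02, adjusted p = 1.38e-06). Among genes with a mean signal of 500 or more, 166 rose and 8 did so at least 2-fold. RGS4, which shortens G protein signals, was another of them, at 190.8, 194.5 and 218.3 against 1222.8, 1146 and 971.8 (2.43, adjusted p = 7.21e-07). RGS4 too stood at an intermediate level in control cells, at 494.7, 544.2 and 757.3 (difference 0.91, adjusted p = 0.00273). IGFBP5, which binds insulin-like growth factors (1.97), DDIT4, an inhibitor of mTOR signalling (1.77), ANK3, a membrane-cytoskeleton anchor of the axon (1.72), and GLI3, a transcription factor of the hedgehog pathway (1.46), completed the 6 largest rises at this level.

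Several of the next largest rises were near their t = 0 level in control cells. PRG2, which encodes a proteoglycan best known from eosinophil granules, read 75.5, 56.3 and 71.1 at t = 0, 1139.7, 1147 and 1083.4 at induced t = 48 and 60.3, 55.1 and 52.2 in control cells (3.96, SE 0.15, adjusted p = 1.75e-08). LIX1 read 14.9, 11 and 14.6 at t = 0, 287.2, 313.1 and 309.9 at induced t = 48 and 18.7, 9.5 and 14.4 in control cells (4.05, SE 0.19, adjusted p = 5.3e-08). In both genes the induced arrays lay far outside the range of the other groups. They differed in pace, since LIX1 had reached 277 ± 32.8 (SD, n = 3) by t = 24 of induction and PRG2 256 ± 40. PLEKHA6 (3.86) and KIF26B, a kinesin-family gene (2.44), also rose, with control values of -0.15 and -0.16 that did not pass. OPRK1, the kappa opioid receptor gene, read 11.9, 9.5 and 11.7 at t = 0, 104.7, 127.1 and 115.8 at induced t = 48 (2.90, adjusted p = 8.97e-08) and 27.7, 22.1 and 26.9 in control cells (0.92, adjusted p = 0.00957, not passed without t = 0 replicate 2 or control replicate 3). PODXL, which encodes the sialomucin podocalyxin, rose by 2.91. Of the 15 largest rises, LIX1, PLEKHA6, COL6A3, P3H2, GABRP, TNR, OPRK1 and ADAMTS8 lay below the array median on all 3 t = 0 arrays, and the size of their change moved with the processing: P3H2 ranged from 1.51 to 4.37 and ADAMTS8 from 1.22 to 3.73 over the alternatives.

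**Figure D2:**
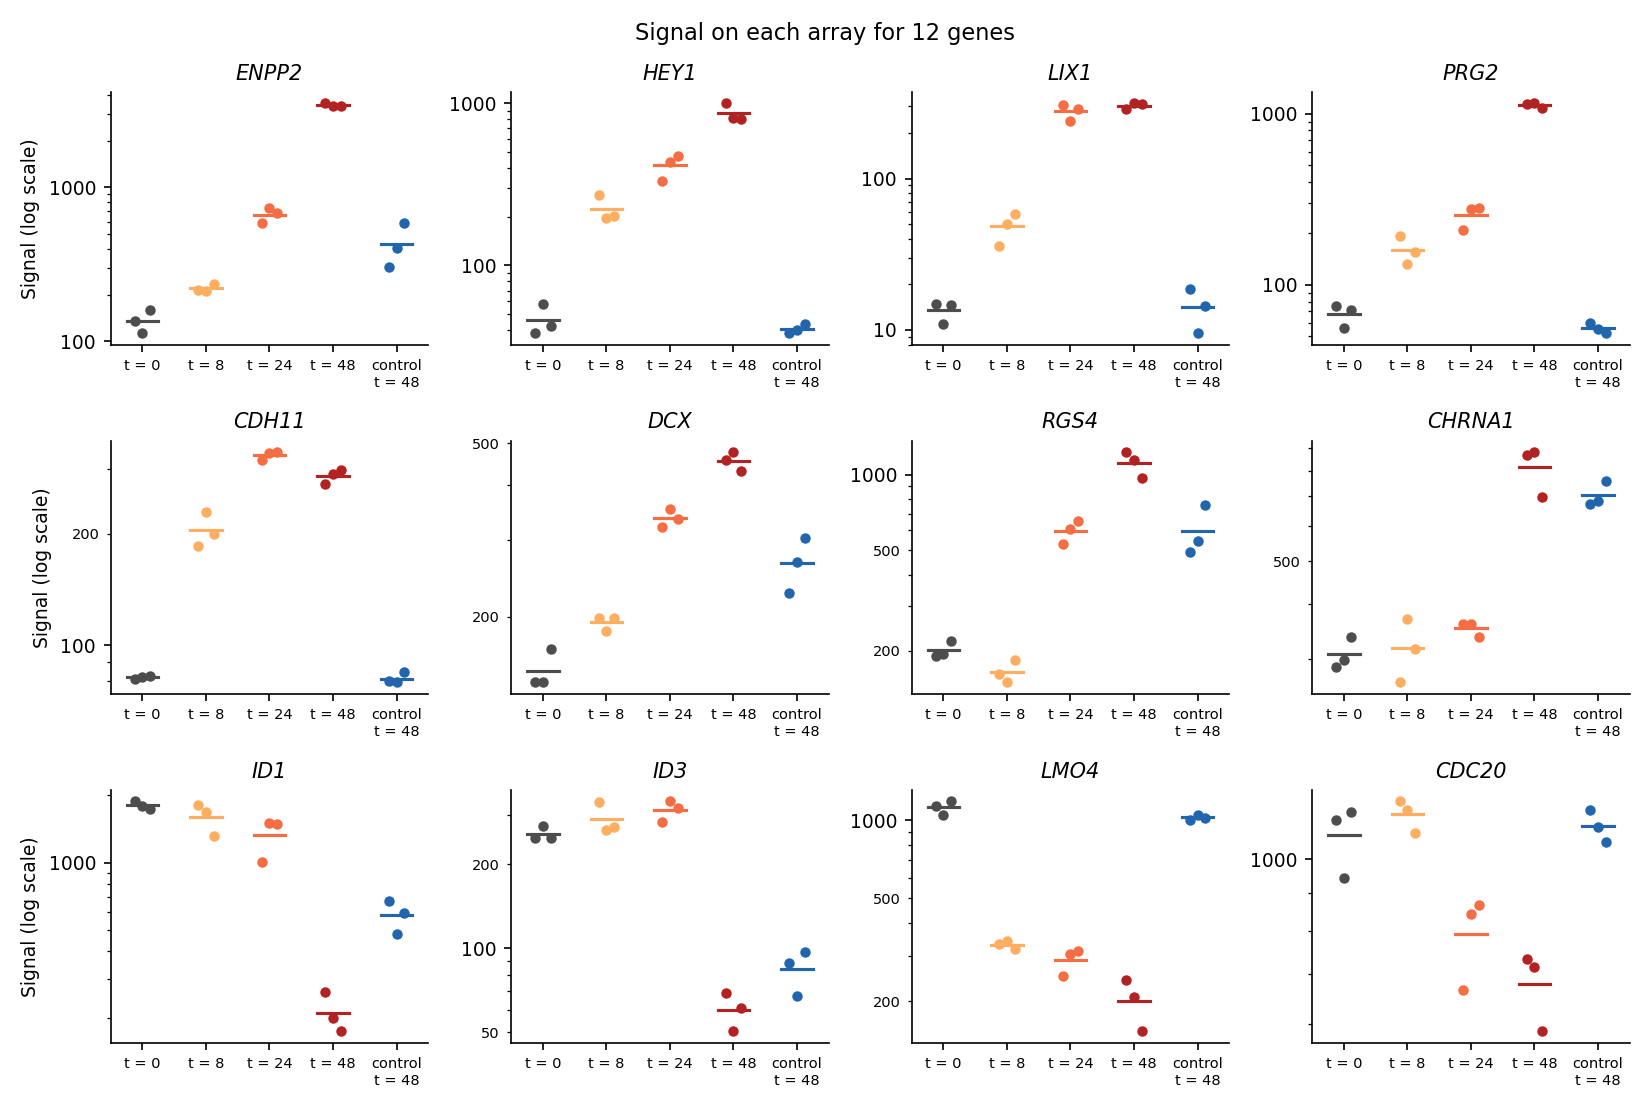
Signals of 12 genes on a log scale, 1 point per array and a line at the mean of each group of 3, for t = 0, induced cells at t = 8, 24 and 48, and control cells at t = 48. HEY1, LIX1, PRG2 and CDH11 are raised at induced t = 48 and near t = 0 in control cells, ENPP2, DCX and RGS4 lie between in control cells, and CHRNA1 and ID3 changed in both.

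The falls were led by ID1. ID1 read 1879.1, 1801.4 and 1742 at t = 0 and 261.6, 200.3 and 174.8 at induced t = 48, a change of -3.08 (SE 0.19, adjusted p = 7.42e-07), with every induced array below every t = 0 array. Control cells at t = 48 stood between, at 674.4, 475.5 and 592.6 (-1.64, adjusted p = 0.00225), and the difference from induced cells passed (-1.44, adjusted p = 0.000543). LMO4, a LIM-domain cofactor found in the core regulatory circuit of adrenergic neuroblastoma, had another pattern. Its signal fell from 1135.9, 1050 and 1182.4 to 240.2, 207.1 and 152.8 (-2.48, SE 0.14, adjusted p = 2.34e-07) and was 1006.4, 1048.8 and 1022.7 in control cells. LMO4 was already at 329.6 ± 11.9 (SD, n = 3) at t = 8, and its 3 other probe sets changed by -2.10 to -1.16 and passed as well.

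SLIT3, which encodes a secreted repellent of growing axons, read 296.2, 338.2 and 281.8 at t = 0, 78.6, 59.8 and 59 at induced t = 48 and 239.8, 219.9 and 208 in control cells (-2.14, adjusted p = 2.49e-07). Its induced arrays lay below all others, and the control change of -0.45 did not pass. ENC1, which encodes an actin-associated kelch protein (-1.92), and PAG1, a membrane adaptor that recruits the kinase CSK (-1.71), fell in induced cells, with control values of -0.20 and -0.38 that did not pass. C11orf96 fell from 750.2, 762.2 and 695 to 208, 175.6 and 180.7 (-1.94) and also in control cells (-0.74, adjusted p = 0.00372). CKM, the muscle creatine kinase gene, fell by 1.98, from 176.5, 174.6 and 170.1 to 58.2, 37.7 and 28.9. Among the other bright genes that fell were MEST, an imprinted gene (-1.24), LAYN, which encodes a hyaluronan receptor (-1.01), and EYA1, a transcriptional cofactor of neural crest and placode cells (-0.93). LINC02593, FCRL5, SLAMF9, TGFA, TEDC1, SVEP1 and LCN15 completed the 15 largest falls (-2.06 to -1.59), from mean signals of 20.3 to 62.4 at t = 0. All of them but SVEP1 lay below the array median on the 3 induced arrays. TEDC1 did not pass without t = 0 replicate 1 or 3 or induced replicate 1 or 2, nor LCN15 without t = 0 replicate 2 or induced replicate 1 or 3.

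The counts of each gene list, here and below, stand against the 9.9% of all genes that rose and the 8.2% that fell. Of 13 measured ID genes and other BMP and SMAD targets, 3 rose, 8 fell and 2 did not pass, with a median change of -0.36. The 4 ID genes were among those that fell. ID3 read 247.4, 273.8 and 248.3 at t = 0, 69.1, 50.4 and 61.3 at induced t = 48 and 88.5, 67.6 and 97 in control cells, so both cultures ended below t = 0 (-2.01 and -1.56, adjusted p = 2.13e-06 and 0.000431) and their difference of -0.45 did not pass. ID2 read 706.8, 758 and 663.8 at t = 0 and 416.4, 459.4 and 421.4 at induced t = 48 (-0.71, adjusted p = 9.68e-05), and 558.7, 470.8 and 514.4 in control cells (-0.46, adjusted p = 0.0194). ID4 fell by 1.21 in induced cells, and its control value of -0.53 did not pass. The inhibitory SMAD genes SMAD6 (-1.13) and SMAD7 (-0.36) fell too, with SMAD9, a gene for a BMP-type SMAD (-0.34), and ATOH8, a bHLH factor gene (-0.78). The members that rose were HEY1, SKIL, a SMAD co-repressor (0.83), and BAMBI, a decoy receptor (0.34). BAMBI did not pass without t = 0 replicate 3 or induced replicate 2, SKIL without t = 0 replicate 1, 2 or 3 or induced replicate 2 or 3 and SMAD7 without t = 0 replicate 1, 2 or 3 or induced replicate 1 or 3. In control cells 0 of the 13 rose and 5 fell, namely ID1, ID3, SMAD6 (-0.71), ATOH8 (-0.63) and ID2 (-0.46). Of these, ID2 did not pass in control cells without t = 0 replicate 1 or 2 or control replicate 2 or 3, SMAD6 without t = 0 replicate 1 or control replicate 3 and ATOH8 without control replicate 3. The order in time was not monotonic for all of these genes, since ID2 read 1086 ± 13.6 and ID3 312 ± 26.4 (SD, n = 3) at t = 24 of induction, above their t = 0 means of 709.5 and 256.

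Upstream of these targets, 4 of 24 measured BMP and TGF-beta ligands, receptors and antagonists rose (16.7%) and 1 fell (4.17%), with a median of 0.22. NOG, which encodes the secreted BMP antagonist noggin, was near the floor of the array at t = 0, at 3.2, 0.9 and 3.4, and read 19.3, 19.7 and 14.4 at induced t = 48 (1.59, SE 0.17, adjusted p = 7.15e-05). In control cells NOG read 8, 10.5 and 10.7 (0.97, adjusted p = 0.0226), again above every t = 0 array but not passed without t = 0 replicate 1 or 2 or control replicate 2 or 3. The receptor genes BMPR2 (0.45), ACVR2B (0.52) and ACVR2A (0.33) rose, with control values that did not pass. TGFB2, a TGF-beta ligand gene, fell by 0.64.

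HEY1 was the largest rise of the Notch list, of which 7 of 26 measured members rose, 0 fell and 19 did not pass (median 0.09). HEY1 encodes a bHLH repressor that answers to Notch and, in some cells, to BMP. It read 38.5, 57.6 and 42.3 at t = 0, 997.7, 813.5 and 800.8 at induced t = 48 and 38.2, 40 and 43.4 in control cells (4.10, SE 0.17, adjusted p = 2.38e-08). HES1, a related repressor, was low at t = 0, at 2.5, 14.8 and 14.8, against 60.9, 61.9 and 65.6 at induced t = 48 (2.23, adjusted p = 0.0006). The induced arrays of both genes lay above all t = 0 and control arrays. The coactivator genes MAML3 (1.30) and MAML2 (1.10), the ligand gene JAG1 (0.88), the protease gene ADAM10 (0.62), which cuts Notch receptors, and MFNG (0.52), which modifies them, completed the members that rose, JAG1 not without t = 0 replicate 1, 2 or 3 or induced replicate 1 or 3. In control cells 2 members rose, MAML3 (0.52, adjusted p = 0.00421) and MFNG (1.09, adjusted p = 0.000431).

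Of 28 measured Wnt genes, 8 rose and 2 fell (median 0.11). WNT5A, a ligand of the non-canonical branch, read 71.2, 59.5 and 79.9 at t = 0, 183.8, 205.9 and 239.8 at induced t = 48 and 59.6, 93.4 and 86.7 in control cells (1.51, adjusted p = 4.54e-05). The receptor genes LGR4 (1.20) and FZD6 (0.77), the target gene AXIN2 (0.42) and the ligand gene WNT11 (1.19) were among the other rises. The secreted antagonist DKK1 fell below its t = 0 level, from 129.2, 117.3 and 101.7 to 70.3, 47.6 and 56.2 (-0.95, adjusted p = 0.0034), after 410.3 ± 59.3 (SD, n = 3) at t = 24. LGR5, another receptor gene of the pathway, fell by 0.62. The antagonist SFRP1 read 402.8, 446.2 and 340.8 at t = 0 and 548.1, 475.9 and 489.6 at induced t = 48, which did not overlap but did not pass (0.35, adjusted p = 0.0789), while control cells were lower than both, at 248.3, 222.2 and 216.9 (-0.77, adjusted p = 0.0153, not passed without t = 0 replicate 1 or 2 or control replicate 2 or 3). WNT11 did not pass without induced replicate 1, 2 or 3, nor LGR5 without t = 0 replicate 1, 2 or 3 or induced replicate 1 or 2, and 5 Wnt genes rose without induced replicate 2 or 3.

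MSX, DLX and partner homeobox genes moved both ways, 3 up and 2 down of 9 measured (median 0.03). DLX5, a partner of MSX proteins in skeletal and craniofacial development, read 71.2, 56.5 and 59.9 at t = 0, 147.2, 145.5 and 162.7 at induced t = 48 and 86.3, 98.1 and 95.7 in control cells (1.22, adjusted p = 5.36e-06), with the 3 groups in separate ranges. Its control change of 0.55 did not pass without t = 0 replicate 2 or 3 or control replicate 2 or 3. LHX8 rose from 343.7, 323.6 and 325.4 to 523.6, 511.6 and 635.7 (0.74). DLX6 (1.01), a neighbour of DLX5, rose too, but did not pass without t = 0 replicate 2 or 3 or induced replicate 3. DLX3 fell from 78, 85.3 and 68.7 to 28.9, 38.6 and 31.2 (-1.12) and also in control cells (-0.72, adjusted p = 0.0312), the latter not without t = 0 replicate 1 or 2 or control replicate 1 or 3. PITX1 fell by 0.34, a call that was lost without t = 0 replicate 1, 2 or 3 or induced replicate 2 or 3.

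Of the gene lists examined, that of G2 and mitosis had the most members that fell. Of 58 measured genes of G2 and mitosis, 37 fell, 0 rose and 21 did not pass, where 8.2% of all genes fell; the median change was -0.39 against -0.02 over all genes. CDC20, which activates the anaphase-promoting complex, read 1128.4, 943.5 and 1157.9 at t = 0, 734.4, 716.3 and 587.1 at induced t = 48 and 1163, 1105.4 and 1053.2 in control cells (-0.66, SE 0.12, adjusted p = 0.00287). PLK1, a kinase of mitotic entry and spindle assembly, read 636.9, 609.9 and 761.5 at t = 0, 415.5, 449 and 374.1 at induced t = 48 and 663.9, 669.9 and 558.5 in control cells (-0.69, SE 0.11, adjusted p = 0.00163). CDCA8, the borealin subunit of the chromosomal passenger complex, read 470.3, 524.6 and 536.3 at t = 0, 308.2, 314 and 297.1 at induced t = 48 and 495.1, 476.8 and 435.2 in control cells (-0.72, SE 0.08, adjusted p = 7.91e-05). In these 3 genes each induced array lay below all t = 0 and control arrays, though induced and t = 0 arrays were separate in 37.2% of all genes. CKAP2L, a spindle protein gene, fell by 0.79 but did not pass without t = 0 replicate 1, 2 or 3 or induced replicate 3. At t = 24 of induction CDC20 already averaged 792, PLK1 444 and CDCA8 322. In control cells 0 members rose and 0 fell, and 30 were lower in induced than in control cells.

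The 37 falls spanned -0.79 to -0.23, and fewer dividing cells cannot be told apart from less of each RNA per cell in bulk samples, here and in the results that follow. The count of G2 and mitosis genes that fell was 42 with each array centred on its median and 34 after quantile normalization. It was 33 without the arrays with a weak bioC control, 26 without t = 0 replicate 3 and 18 with the 2 groups fitted alone.

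Many genes of this group are held down in quiescent cells by the DREAM complex, which is known to act through a promoter element called CHR (TTTGAA or TTCGAA) together with CCAAT boxes bound by NF-Y. The 250 bases before the start site were searched on both strands for TTTGAA or TTCGAA and for CCAAT in RefSeq promoters of GRCh38.p14. The 4 promoters below belong to the G2 and mitosis genes named above, are written 5' to 3' on the gene's strand and are shown because these genes fell together; the capitals mark the motifs, also in reverse as TTCAAA or ATTGG.
CDC20, chr1:43358731-43358980, + strand: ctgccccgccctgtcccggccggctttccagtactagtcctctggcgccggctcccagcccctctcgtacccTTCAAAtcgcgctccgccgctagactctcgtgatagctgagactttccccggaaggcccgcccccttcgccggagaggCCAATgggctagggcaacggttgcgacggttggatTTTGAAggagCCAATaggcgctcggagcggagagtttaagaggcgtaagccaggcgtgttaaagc
CDCA8, chr1:37692266-37692515, + strand: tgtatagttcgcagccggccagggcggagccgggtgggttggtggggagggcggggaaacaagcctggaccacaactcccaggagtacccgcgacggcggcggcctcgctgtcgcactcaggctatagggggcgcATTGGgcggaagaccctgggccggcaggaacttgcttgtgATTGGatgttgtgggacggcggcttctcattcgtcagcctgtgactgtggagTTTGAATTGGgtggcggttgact
CKAP2L, chr2:112764610-112764859, - strand: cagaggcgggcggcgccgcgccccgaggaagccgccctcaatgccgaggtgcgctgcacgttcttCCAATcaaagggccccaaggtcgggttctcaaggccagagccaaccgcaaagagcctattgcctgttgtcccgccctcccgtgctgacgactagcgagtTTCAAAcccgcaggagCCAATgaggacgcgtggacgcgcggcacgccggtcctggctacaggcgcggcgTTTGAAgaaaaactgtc
PLK1, chr16:23678639-23678888, + strand: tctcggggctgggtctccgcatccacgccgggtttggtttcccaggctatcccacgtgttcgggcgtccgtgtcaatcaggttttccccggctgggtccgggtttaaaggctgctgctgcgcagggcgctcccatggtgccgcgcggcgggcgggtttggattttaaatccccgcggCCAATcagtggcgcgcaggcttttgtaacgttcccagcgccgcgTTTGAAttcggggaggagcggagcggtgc

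The CHR motif nearest the start site began 65 bases before it in CDC20, 23 in CDCA8, 17 in CKAP2L and 29 in PLK1. In CDCA8 the last base of this motif is also the first base of a reversed CCAAT. Of the 37 G2 and mitosis genes that fell, 31 had a promoter in the table, and 18 of these (58.1%) held TTTGAA or TTCGAA together with CCAAT. The same pair stood in 3.91% of the 10428 promoters of genes tested and in 5.24% of all 27305 promoters. It was also found in 6 of the 21 members that did not pass (28.6%) and in 1 of 20 promoters of G1-S genes that fell (5.0%). A match is a description of the sequence and not a measured binding site.

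Genes of the G1-S transition and DNA replication fell as well, 26 of 60 measured, and 0 rose (median -0.26). CDC25A, the phosphatase that releases S-phase kinases, read 430.5, 398.2 and 400.1 at t = 0, 232.3, 282.9 and 271.7 at induced t = 48 and 347.4, 384.9 and 353.6 in control cells (-0.64, adjusted p = 0.000358). CCND1, the cyclin D1 gene, read 1282.9, 1273.5 and 1234.9 at t = 0, 779.1, 827.6 and 940.6 at induced t = 48 and 1041.5, 1096.6 and 1032.8 in control cells (-0.58, adjusted p = 0.00288). Neither gene's induced range met that of t = 0, and CCND1 in control cells lay between. GINS4, a subunit of the replicative helicase, fell by 0.60. The DNA replication gene CDC45 fell by 0.57, but did not pass without t = 0 replicate 1 or 2 or induced replicate 2 or 3. In control cells 0 of the list rose and 0 fell, and without t = 0 replicate 2 or induced replicate 2 the count of 26 became 17. With the 2 groups fitted alone, 9 of the list fell and 1 rose. Among DNA damage and recombination genes 8 of 25 fell (median -0.19), such as CHEK2 (-0.47) and RAD54B (-0.42), and ATR, a checkpoint kinase gene, rose (0.43); 4 or 5 fell without t = 0 replicate 1 or 3 or induced replicate 1 or 2.

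Opposed to these, 9 of 26 cell cycle inhibitors, growth-arrest genes and p53 targets rose and 1 fell, with a median of 0.22. CDKN1C, an imprinted gene for the cyclin-dependent kinase inhibitor p57, read 157.5, 157.3 and 155.3 at t = 0, 470.3, 441.9 and 425.7 at induced t = 48 and 163.7, 156.4 and 147 in control cells (1.48, SE 0.09, adjusted p = 5.71e-07). CDKN1C was higher still at t = 24, at 679 ± 51.2 (SD, n = 3). GAS1, a growth-arrest gene for a membrane protein that binds hedgehog ligands, rose by 1.08 (from 230.7, 195.1 and 214.7 to 522.1, 449.2 and 406.4), and GAS2 by 1.02. TP53INP1 rose by 0.83 but did not pass without t = 0 replicate 2 or induced replicate 1, 2 or 3. CDKN1A, which encodes the inhibitor p21, fell by 0.47 and did not pass without t = 0 replicate 1 or 2 or induced replicate 2 or 3. The 9 rises became 4 without t = 0 replicate 2 and 5 without induced replicate 3.

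**Figure D3:**
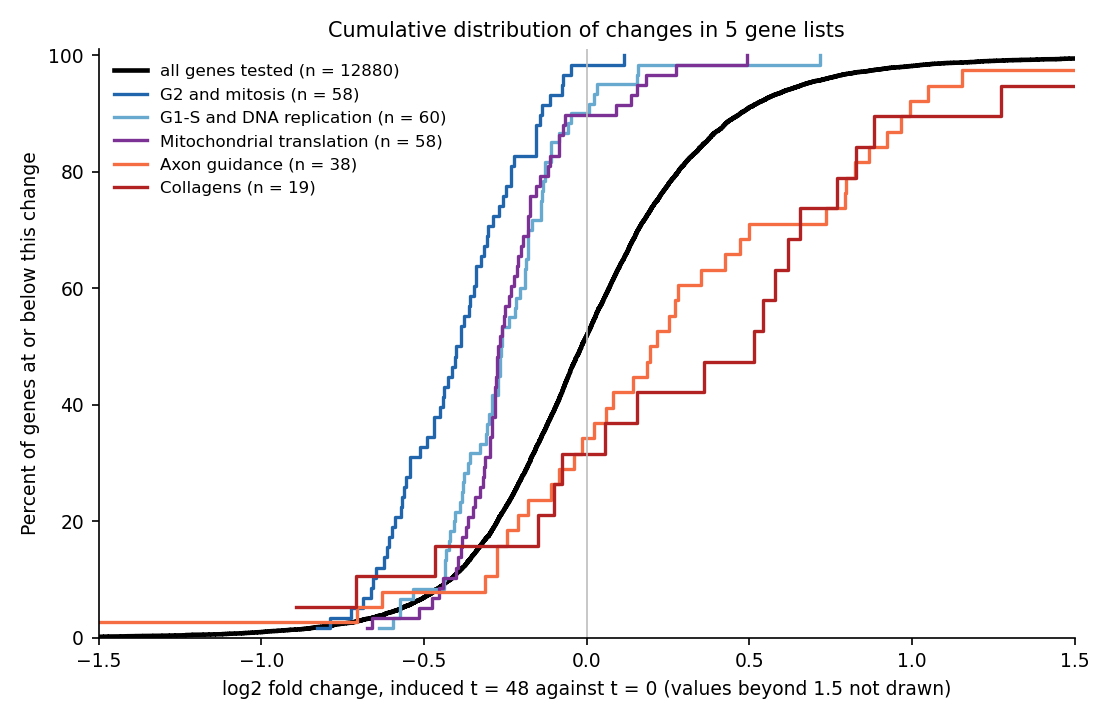
Cumulative share of genes (percent, vertical axis) at or below each log2 fold change between t = 0 and induced t = 48 (horizontal axis), for all 12880 genes in black and for 5 gene lists. Values beyond 1.5 are not drawn. The G2 and mitosis curve lies to the left of the black curve, with a median of -0.39, and the collagen curve crosses 50 percent at 0.51.

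Extracellular matrix and adhesion genes were followed in 6 lists. Of 19 measured collagen genes 8 rose and 1 fell, with a median of 0.51. COL6A3 and COL6A1, which encode chains of the microfibril-forming collagen VI, both rose. COL6A3 read 1.1, 9.9 and 2 at t = 0, 92.6, 78 and 83.3 at induced t = 48 and 1.4, 9 and 2.1 in control cells, so its change of 3.35 starts from near the floor of the array. COL6A1 read 286.5, 290.5 and 263.4 at t = 0, 553.4, 508.7 and 500.2 at induced t = 48 and 248.9, 321.6 and 302.5 in control cells (0.88, adjusted p = 0.000351). Both genes separated induced cells from the other groups. COL13A1, a transmembrane collagen, read 136.5, 140.7 and 147 at t = 0, 332.4, 372.9 and 342.2 at induced t = 48 and 166.7, 141.1 and 153.9 in control cells (1.27, adjusted p = 5.65e-07), and COL1A1 rose by 0.83. The member that fell was COL16A1 (-0.71), which did not pass without t = 0 replicate 1, 2 or 3 or induced replicate 1 or 2.

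Among genes that modify collagen, 4 rose and 5 fell of 21 (median -0.02). P3H2, a prolyl 3-hydroxylase, read 4.3, 1.9 and 1.2 at t = 0 and 58.3, 65.6 and 74.9 at induced t = 48 (3.24, adjusted p = 8.42e-05), a change that starts from near the floor. Its relative P3H3 (-0.90) fell, as did LOXL3 (-0.53), a crosslinking enzyme gene, PLOD2 (-0.53) and SERPINH1 (-0.44); 2 members of the list rose without induced replicate 3. Of 34 matrix glycoproteins and proteoglycans 8 rose and 1 fell (median 0.00). SPOCK1, a secreted proteoglycan gene, read 82.3, 93.6 and 83.2 at t = 0, 613.6, 550.8 and 658 at induced t = 48 and 137.1, 124.4 and 127 in control cells (2.74, SE 0.09, adjusted p = 5.43e-09), with the control change also passing (0.56, not without t = 0 replicate 1 or control replicate 3). Lumican (LUM), a collagen-binding proteoglycan, read 13.8, 8.3 and 7.1 at t = 0, 73.4, 51.7 and 78.4 at induced t = 48 and 5.1, 9.6 and 7.6 in control cells (2.30), after 160.0 ± 27.6 (SD, n = 3) at t = 24. TNR, which encodes the brain matrix protein tenascin-R, rose in both cultures, to 55, 78.6 and 81.3 in induced and 29.2, 34.2 and 44.8 in control cells from 2.8, 7.6 and 4.5 (2.93 and 2.04, difference not passed at adjusted p = 0.0689). The member that fell was SPARC (-0.53).

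Matrix proteases and their inhibitors gave 7 rises and 2 falls among 22 (median 0.04). TIMP3, a metalloprotease inhibitor gene, read 90.5, 80.7 and 93.6 at t = 0, 372.6, 362.8 and 437.9 at induced t = 48 and 96.8, 85.2 and 75.1 in control cells (2.08, adjusted p = 2.13e-06), while TIMP2 (-0.57) and ADAMTS1 (-0.54) fell. ADAMTS8 rose by 2.75 from near the floor (1.1, 4.6 and 3.8), and PLAT, tissue plasminogen activator, by 1.26; 4 of this list rose without t = 0 replicate 2 or 3. Of 19 integrin and laminin genes 7 rose and 0 fell (median 0.21). ITGA6, the laminin-binding integrin alpha6 chain, read 28.5, 40.1 and 17.1 at t = 0, 168.6, 160.8 and 210.9 at induced t = 48 and 48.3, 50.9 and 57.3 in control cells (2.51, adjusted p = 9.42e-06). ITGB5 (1.84), ITGA8 (1.51), ITGB8 (1.24) and the laminin chain gene LAMB1 (0.53) were among the others that rose.

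Cadherins showed 4 rises and 1 fall among 18 (median 0.11). CDH11, a cadherin of mesenchymal and migrating neural crest cells, had closely grouped values of 81.3, 82.3 and 82.6 at t = 0, 272.2, 290.9 and 297.7 at induced t = 48 and 80, 79.5 and 84.5 in control cells (1.74, SE 0.08, adjusted p = 4.6e-08). PCDH8, a protocadherin gene, rose by 1.96, FAT4 (0.82) and CELSR2 (0.61) rose less, and CDH10 (-0.45) fell. Of the broader mesenchymal regulators and markers (median 0.09), 2 of 15 rose, CDH11 and FN1 (0.86), and 2 fell, SNAI1 (-1.12) and VIM (-0.45); VIM did not pass without t = 0 replicate 2 or induced replicate 2 or 3.

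Fibroblast markers were set beside the matrix genes, and LUM and COL1A1 are members of both. The summed signal of 12 listed fibroblast markers was 1301 to 1434 at t = 0, 2123 to 2182 at induced t = 48 and 1587 to 1693 in control cells. PDGFRA and COL1A1 were the brightest of them. Of the 9 that passed the filter on low signal 3 rose, LUM, COL1A1 and PDGFRA (0.68), and 6 did not pass. Against control cells 3 of the 9 were higher and 0 lower, with a median difference of -0.04. Of the 12, COL1A1, PDGFRA, THY1 and ACTA2 were at or above the array median on all 15 arrays, PDGFRB on 13, COL3A1 and TAGLN on 12, DCN on 8, LUM on 6, COL1A2 on 1, and POSTN and FAP on 0. Of 8 Schwann cell markers on the array, 5 were below the median everywhere, S100B and SOX10 among them, and L1CAM, a neuronal adhesion gene too, rose (0.69); the Schwann markers summed to 188.9 to 207.3 at t = 0 and 257.3 to 280.9 at induced t = 48. The sums of epithelial and of blood and endothelial markers overlapped between these groups, with 0 of 2 and 0 of 3 measured members past the threshold. The part of these markers in the matrix results was not tested.

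Genes of neuronal differentiation rose in several lists. Among 15 proneural bHLH factors and their partners, 7 rose and 1 fell, with a median of 0.28. INSM1, a zinc-finger factor of neuroendocrine cells and neuronal progenitors leaving the cycle, was the brightest of the leading members, at 1082.3, 926 and 1175.5 at t = 0, 1866.4, 1965.5 and 2151.4 at induced t = 48 and 1333.9, 1566.9 and 1471.1 in control cells (0.91, adjusted p = 0.00201). Its control arrays lay between the other groups, and neither the control change (0.46) nor the difference at t = 48 (0.45) passed. MYT1, a repressor of Notch targets in neurons, read 51.8, 24.2 and 50 at t = 0, 114.1, 128.6 and 139.2 at induced t = 48 and 56.8, 62.1 and 67.7 in control cells (1.55, adjusted p = 0.000544). Its relative MYT1L (1.29) and INSM2 (1.76) rose from low levels. NHLH2, a neuronal bHLH gene, fell by 0.62.

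Of 30 genes of the neuronal cytoskeleton and neurite growth 10 rose and 1 fell (median 0.19). DCX, the microtubule-associated doublecortin of migrating neurons, read 141.7, 141.8 and 168.8 at t = 0, 457, 475.8 and 431.3 at induced t = 48 and 226.9, 266.5 and 302.6 in control cells (1.56, SE 0.10, adjusted p = 1.28e-06). DCX also passed in control cells (0.79, adjusted p = 0.00401) and between the cultures (0.77, adjusted p = 0.000547), so the 3 groups had separate ranges. STMN2, a stathmin of growing axons, read 8.1, 17.9 and 18.4 at t = 0, 69.2, 68.9 and 91.2 at induced t = 48 and 29, 9.8 and 27 in control cells (2.07, adjusted p = 0.00269), and its other probe set rose by 3.02. MAPT, the tau gene, rose by 1.06, and MAP2 (0.77), CRMP1 (0.64) and DPYSL3 (0.55) by less. The fall was that of KIF1A (-0.54), an axonal transport motor. The other KIF1A probe set read 0.20 and did not pass.

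Ion channel and transmitter receptor genes gave 10 rises and 3 falls of 30 (median 0.19). GABRP, the pi subunit of GABA-A receptors, read 2.5, 1.7 and 1.1 at t = 0, 49.3, 46.7 and 65.3 at induced t = 48 and 1.3, 1.6 and 0.7 in control cells (3.08), so it was near the floor without induction. KCNMA1, a calcium-activated potassium channel gene (2.28), and SCN3A, a sodium channel gene (1.66, 17.2, 17.1 and 19.2 to 70.2, 61.1 and 71.4), rose, and SCN3B (-1.41) and CHRNA3 (-0.52) were among the falls. Of synaptic vesicle and release genes, 4 of 25 rose and 2 fell (median 0.04). NRXN3, a presynaptic adhesion gene, rose by 1.38, SV2B by 0.96 and SNAP25 by 0.71, while SYN2 fell by 0.81 on its brightest probe set, with 4 other probe sets that also passed. The 2 other SV2B probe sets read -0.29 and -0.13 and did not pass.

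Axon guidance ligands and receptors rose in 10 of 38 cases, and SLIT3 was the 1 that fell (median 0.20). SEMA5B, a semaphorin gene, read 16.8, 28.9 and 25.8 at t = 0, 112.7, 116 and 86.7 at induced t = 48 and 13.5, 5.4 and 18.4 in control cells (1.94, adjusted p = 0.000323). NTN4, a netrin gene, rose by 1.05. ROBO2, a receptor of SLIT proteins, rose by 1.15 from a low level, a call that was lost without t = 0 replicate 1 or 2 or induced replicate 1, 2 or 3.

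Of 13 genes of dense-core secretory granules 4 rose and 1 fell (median -0.00), and the granins, cargo proteins of these granules, were among the rises. CHGB read 106.2, 91.9 and 96.4 at t = 0, 220, 223 and 218.6 at induced t = 48 and 99.6, 85.5 and 92.5 in control cells (1.13, SE 0.09, adjusted p = 3.36e-06). CHGA read 1394.6, 1323.6 and 1249.5 at t = 0, 1983.6, 1995.9 and 2508.6 at induced t = 48 and 1087.2, 1208.9 and 1152.2 in control cells (0.70, adjusted p = 0.00255). Control cells overlapped t = 0 in CHGB and lay below it in CHGA. SCG3 (0.85) and the peptide-amidating enzyme gene PAM (0.41) rose too, and galanin (GAL), a neuropeptide gene, fell from 1505.5, 1338.3 and 1410.9 to 887.3, 847.4 and 981.4 (-0.65). Among 14 catecholamine genes, 2 rose and 2 fell (median -0.00); DDC, which makes dopamine, rose by 0.61, and ADRA2A, the alpha-2A adrenergic receptor gene, fell from 235.3, 223.6 and 236.5 to 67.2, 75 and 97.7 (-1.49). SLC6A2, the noradrenaline transporter gene, fell in both cultures (-0.53 and -0.62, the latter not without t = 0 replicate 1 or 2 or control replicate 2), and TH, the first enzyme of catecholamine synthesis, was below the array median on all 15 arrays, at 11.9 or less.

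The identity of the line was checked against neuroblastoma markers. Their summed signal was 16216 to 16985 at t = 0, 16871 to 18335 at induced t = 48 and 16189 to 16594 in control cells. MYCN and GATA3 were the brightest of them, and TH, also listed, was below the array median on all 15 arrays. Of 14 measured markers 6 rose (42.9%, against 9.9% of all genes) and 1 fell. MYCN, which is amplified in IMR32, read 5525.2, 4887.3 and 5197 at t = 0 and 5534.7, 4826.6 and 5608.9 at induced t = 48, with overlapping ranges (0.03, adjusted p = 0.816). GATA3, a sympathetic lineage factor, read 3745.9, 3506.9 and 3616.7 and 3609.4, 3161.7 and 3562.2, also overlapping (-0.07, adjusted p = 0.531), and HAND2 overlapped as well (-0.39, adjusted p = 0.341). Of 19 adrenergic regulators 4 rose and 4 fell (median -0.16). ALK, the receptor kinase gene mutated in some neuroblastomas, read 360.2, 414 and 379.2 at t = 0, 773.3, 725.5 and 678.8 at induced t = 48 and 333.2, 387.1 and 368.6 in control cells (0.91, adjusted p = 5.54e-05). SOX11 (0.57), PHOX2A (0.47) and HAND1 (0.40) rose, and beside LMO4 and EYA1 TBX2 (-0.72) and ISL1 (-0.97) fell; ISL1 did not pass without t = 0 replicate 2 or induced replicate 2 or 3. Among other neural crest and stem cell factors, SOX2 fell from 199.1, 186.6 and 225.9 to 86, 96.4 and 65.8 (-1.26) on its brightest probe set. Its other probe sets read -1.48 and -1.57, which passed, and 0.31, which did not. EDNRB (0.86) rose, as did ETS1 (1.06) on its brightest probe set. The 2 other ETS1 probe sets read -0.20 and -0.28 and did not pass.

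Signalling receptors changed in both directions. CXCR4, the receptor of the chemokine CXCL12, read 159.7, 131.1 and 163.3 at t = 0, 45.1, 67.2 and 49.9 at induced t = 48 and 136.8, 157.4 and 152.6 in control cells (-1.41, adjusted p = 1.29e-05). CXCR4 had reached 43.9 ± 2.31 (SD, n = 3) by t = 8. Over the whole list of chemokine, lysophospholipid and G protein signalling genes 12 of 33 rose and 3 fell (median 0.16), among them RGS2 (-0.47). ACKR3, which encodes the scavenger receptor of CXCL12, was among the rises (0.87). Of receptor tyrosine kinases and growth factors 8 of 30 rose although the median of the list was -0.13, with KIT (0.75) and GFRA1, a co-receptor of GDNF (0.78), after IGFBP5 and ALK, and FGF12 (-0.63) and FGFR4 (-0.38) fell; FGFR4 did not pass without t = 0 replicate 1 or 3 or induced replicate 1 or 3. Among immediate early genes and feedback regulators of growth factor signalling 7 of 30 rose and 2 fell (median 0.24). EGR1 (1.15) and the feedback regulators SPRED2 (0.98) and DUSP4 (0.97) were among the former, and JUN (-0.75) and KLF2 (-0.71) were the latter. CD9, a tetraspanin gene, fell from 235.7, 225.4 and 195.9 to 63.1, 75.2 and 78 (-1.54), after 393 ± 15 (SD, n = 3) at t = 24.

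Hypoxia and glycolysis genes moved both ways. Known targets of hypoxia-inducible factor led the 10 of 40 members that rose (median 0.10). VEGFA, the vascular growth factor gene, read 76.3, 62.4 and 81.9 at t = 0, 224.2, 253.2 and 237.9 at induced t = 48 and 73.2, 110.6 and 144.4 in control cells (1.64, adjusted p = 0.000176). NDRG1 read 48.6, 52.3 and 42.1 at t = 0, 163.3, 143.9 and 136.3 at induced t = 48 and 34.2, 30.3 and 43.2 in control cells (1.53, adjusted p = 1.38e-05). DDIT4 (1.77), ADM (1.20) and ARRDC3 (1.01) rose as well. The 5 that fell were the glycolytic enzyme genes PKM (-0.78), HK1 (-0.36), ALDOA (-0.25) and ENO1 (-0.22) and the carbonic anhydrase gene CA12 (-0.37). With any 1 of the 6 arrays left out, 1 or 2 of this list fell.

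Several lists of lipid and protein synthesis were set against the 8.2% of all genes that fell. Falls were more frequent among bright genes, with 373 of 2401 at a mean signal of 500 or more. Of 23 housekeeping genes 5 fell (21.7%). The part of signal level in the counts of these lists was not tested. Of 28 cholesterol and fatty acid genes 9 fell (median -0.19), with the synthesis enzyme genes ACAT2 (-0.65, 593.6, 606.9 and 655.2 to 389.8, 415.8 and 374.9), NSDHL (-0.56) and SC5D (-0.52) in front. The 1 that rose was ABCA1, which exports cholesterol from cells, at 14.8, 15.4 and 14.4 at t = 0, 88.2, 106.9 and 116.9 at induced t = 48 and 13.2, 26 and 25.3 in control cells (2.44, adjusted p = 2.57e-06). Of 58 genes of the mitochondrial ribosome and its translation 17 fell, led by MRPL24, from 762.9, 791.2 and 817 to 547.8, 472.2 and 463.5 (-0.67), and MTIF2 rose (0.27), with a median of -0.27. Nucleolar ribosome biogenesis genes fell in 7 and respiratory chain genes in 5 of 44 and 50 cases (15.9% and 10.0%, medians -0.16 and -0.14); the respiratory chain share is near that of all genes. Of 42 heat shock and chaperone genes 10 fell (median -0.15). DNAJB1 did so in both cultures (-0.59, and -0.45 with adjusted p = 0.0281 in control cells, not passed with any 1 of those arrays left out), and HSPB1 went from 3430.3, 3658.4 and 3827.6 to 2634.6, 2474 and 2294.9 (-0.56). These counts moved with single arrays. The 17 mitochondrial translation genes became 9 without t = 0 replicate 1 or 2, 7 without t = 0 replicate 3, 8 without induced replicate 2 and 5 without induced replicate 3. The 9 cholesterol genes became 5 without t = 0 replicate 2 or 3 and 4 without induced replicate 3, and the 10 heat shock genes 6 without t = 0 replicate 2 or 3. The 7 ribosome biogenesis genes became 2 without t = 0 replicate 3 or induced replicate 3. The 5 respiratory chain genes became 0 without induced replicate 2, 1 without t = 0 replicate 2 or 3 or induced replicate 3, and 2 without t = 0 replicate 1. MTIF2 did not pass without t = 0 replicate 1, 2 or 3 or induced replicate 2 or 3.

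**Figure D4:**
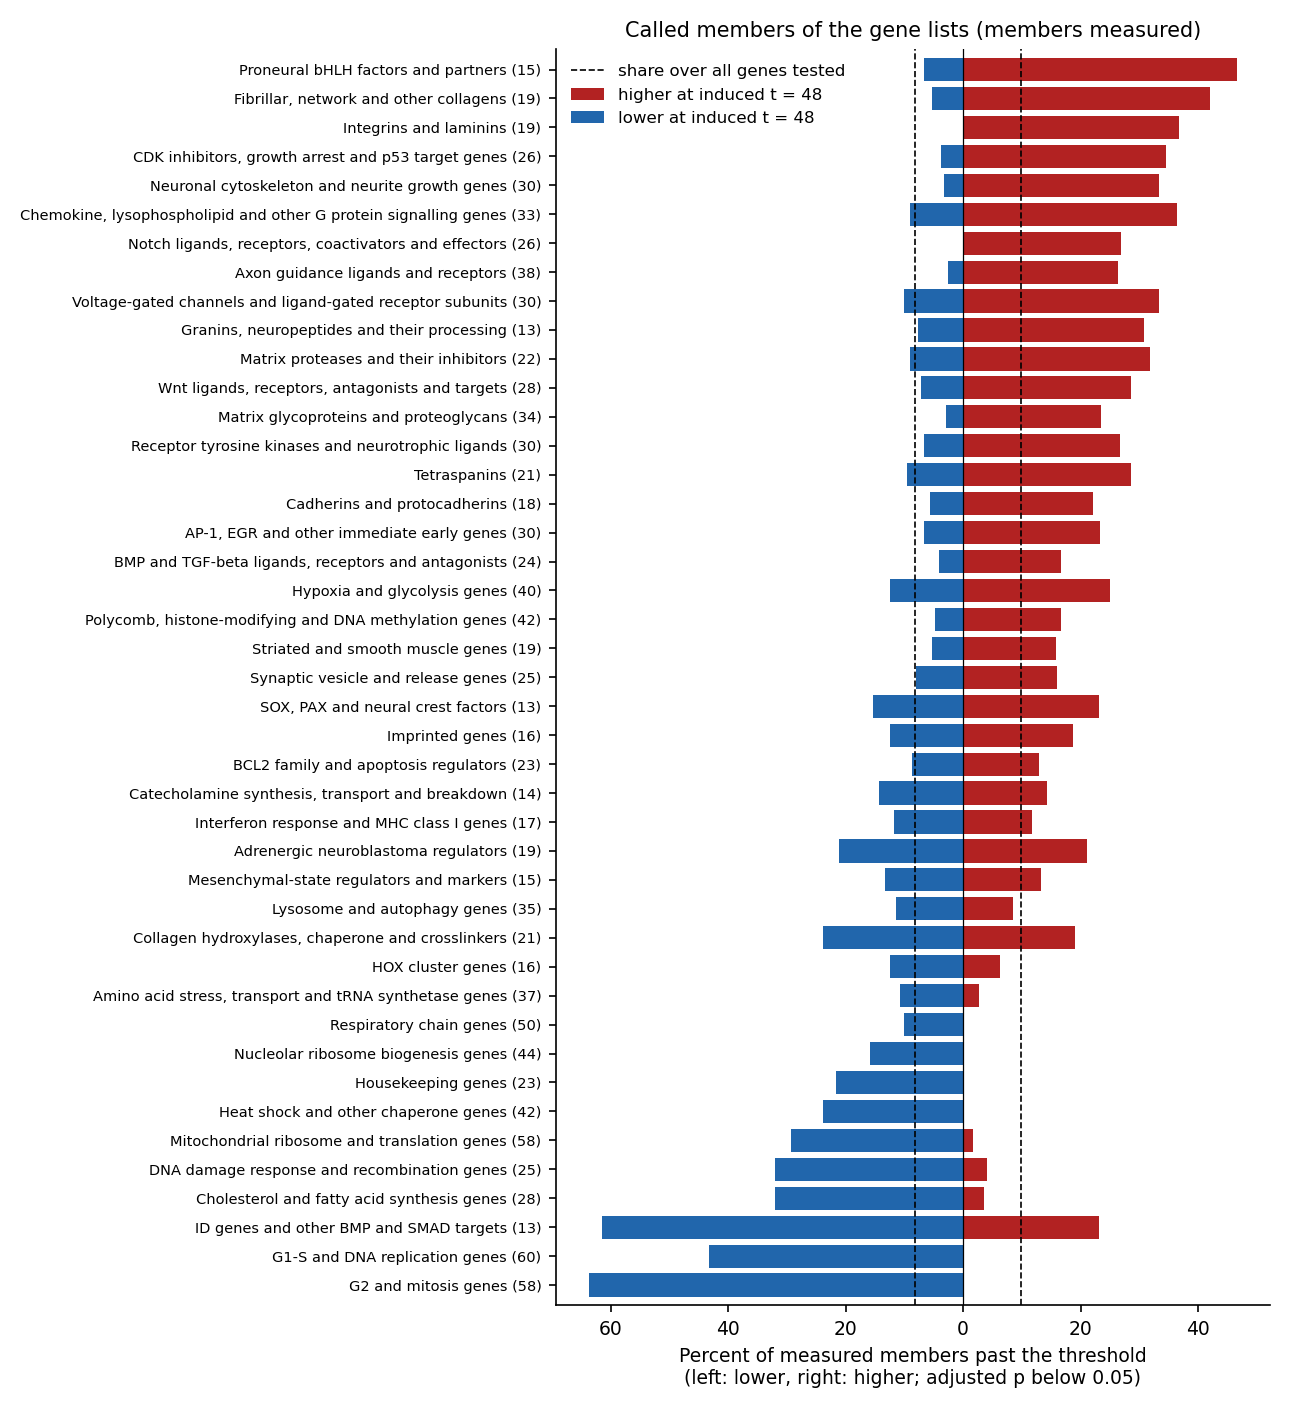
Percent of the measured members of each gene list (number measured in brackets) that rose (red, right) or fell (blue, left) between t = 0 and induced t = 48. Dashed lines mark the shares over all 12880 genes, 9.9% higher and 8.2% lower; some genes are on more than 1 list.

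The remaining lists gave few calls or calls in both directions, beside the 9.9% of all genes that rose and the 8.2% that fell. Of chromatin regulators 7 of 42 rose and 2 fell, of tetraspanins 6 of 21 rose and 2 fell, and of lysosome and autophagy genes 3 of 35 rose and 4 fell. Amino acid and stress response genes gave 1 rise and 4 falls of 37, apoptosis genes 3 and 2 of 23, and interferon and antigen presentation genes 2 and 2 of 17. The shares of the lysosome (8.57% and 11.4%), apoptosis (13.0% and 8.7%) and interferon lists (11.8% and 11.8%) were near those of all genes. Among housekeeping genes 0 of 23 rose and 5 fell. Single arrays moved the chromatin rises to 3 without t = 0 replicate 3 and 4 without induced replicate 2 or 3, and the tetraspanin rises to 3 without t = 0 replicate 1 and 2 without t = 0 replicate 2 or induced replicate 2 or 3. The apoptosis rises became 1 without t = 0 replicate 2 and 0 without induced replicate 2, and its falls 1 without t = 0 replicate 2 or 3 or induced replicate 2 and 0 without t = 0 replicate 1 or induced replicate 3. The interferon rises became 1 without t = 0 replicate 1 or induced replicate 1, and its falls became 1 without t = 0 replicate 1 or 3 or induced replicate 1 and 0 without t = 0 replicate 2 or induced replicate 2 or 3. The stress response falls became 2 without t = 0 replicate 1 or 2 or induced replicate 2 or 3, and the housekeeping falls 3 without t = 0 replicate 1 and 2 without t = 0 replicate 2 or 3 or induced replicate 2 or 3.

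Scaling moved some list counts too. With each array centred on its median, 7 Notch genes rose and 2 fell, 5 Wnt genes rose and 2 fell, and 10 respiratory chain genes fell. The apoptosis list turned to 1 rise and 3 falls. The MSX and DLX list was then even at 3 and 3, as was the chromatin list at 4 and 4, and the medians of the MSX and DLX, matrix protease, matrix protein and synaptic lists were -0.04, -0.03, -0.07 and -0.04. Quantile normalization left 1 respiratory chain gene and 6 heat shock genes lower and 2 hypoxia and glycolysis genes lower.

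Because t = 0 cells had spent no further time in culture, the changes of the main genes were set beside those of control cells at t = 48. Both use the same 3 t = 0 arrays. Many other changes above are given without their control value, which differed from gene to gene. It was -0.78 for KLF2, 1.12 for INSM2 and 0.75 for PODXL, but -0.03 for GLI3 and -0.10 for FN1. In control cells 109 genes passed (0.846%), 62 higher (0.481%) and 47 lower (0.365%). The difference between induced and control cells at t = 48, which equals the difference of the changes from t = 0, passed for 1101 genes (8.55%), 678 higher (5.26%) and 423 lower (3.28%). The control count is small and rests on few arrays. It was 44, 58 and 70 without t = 0 replicate 1, 2 or 3, 51 and 33 without control replicate 2 or 3, and 0 when the 2 groups were fitted without the other arrays, against 1442 genes at an unadjusted p below 0.05. The count between the cultures was 709 and 625 without induced replicate 2 or 3 and 674, 659 and 707 without control replicates 1 to 3.

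**Figure D5:**
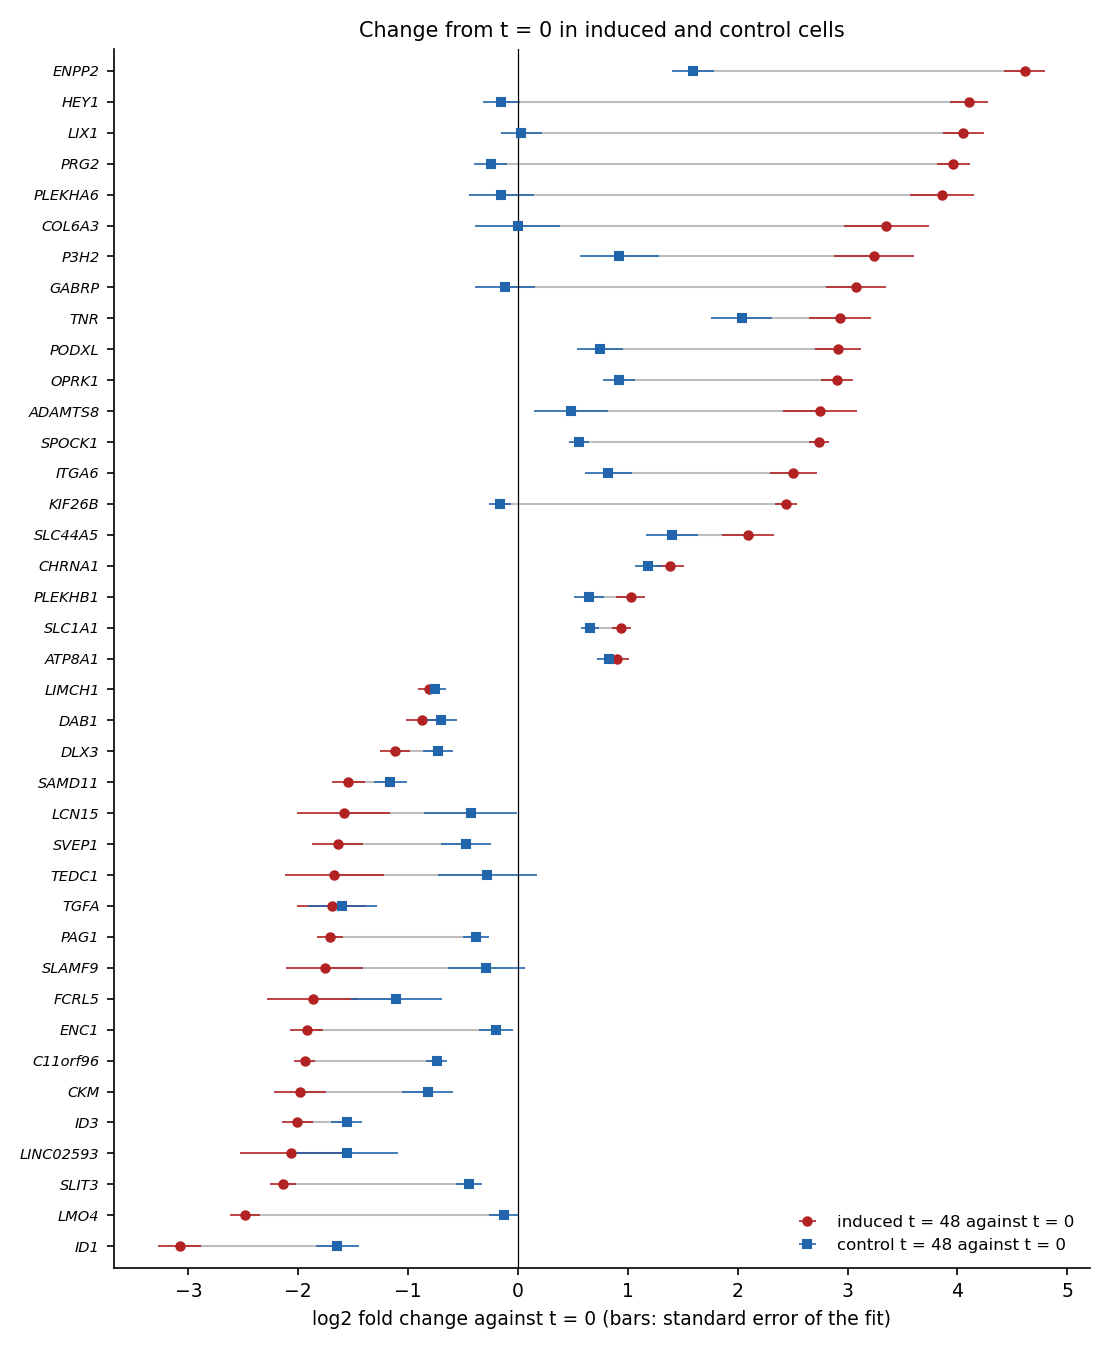
Log2 fold change against t = 0 in induced cells (red circles) and control cells (blue squares) at t = 48, with the standard error of the fit, for the 15 largest rises and falls and for the 6 largest rises and falls that passed in both cultures without passing between them. The same 3 t = 0 arrays serve both series; TGFA, LIMCH1 and ATP8A1 lie at nearly the same place in both, and HEY1, LIX1 and LMO4 stay near 0 in control cells.

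Some genes passed against t = 0 in both cultures, while the difference between the cultures did not pass. The change without doxycycline was nearly as large in some of them, such as LIMCH1, and smaller in others, such as SLC44A5. CHRNA1, the muscle-type nicotinic receptor subunit, read 287.2, 298.3 and 336.3 at t = 0, 867.9, 880.3 and 697 at induced t = 48 and 674.1, 683.6 and 759.5 in control cells (1.39 and 1.19). The induced and control arrays overlapped, and their difference did not pass (0.20, SE 0.12, adjusted p = 0.357). ATP8A1, a phospholipid flippase gene, read 205.2, 200.8 and 226.5 at t = 0, 370, 422.4 and 404.6 at induced t = 48 and 332.5, 409.4 and 395 in control cells (0.90 and 0.83). SLC44A5 (2.09 and 1.40), SLC1A1, a glutamate transporter gene (0.94 and 0.65), and PLEKHB1 (1.02 and 0.64) also rose in both. Among falls, LIMCH1, an actin and myosin regulator gene, read 431.9, 403.5 and 427.2 at t = 0, 240.5, 214.2 and 261.3 at induced t = 48 and 277.6, 249.9 and 216.6 in control cells (-0.81 and -0.76). DAB1, an adaptor of reelin signalling (-0.87 and -0.70), SAMD11 (-1.54 and -1.16) and TGFA, a ligand of the EGF receptor (-1.69 and -1.60), fell in both, as did ID3 and DLX3. The control calls of PLEKHB1 and TGFA were lost with any 1 of the 6 arrays left out, those of DAB1 without t = 0 replicate 1, 2 or 3 or control replicate 2 or 3 and SLC44A5 without t = 0 replicate 1 or 3 or control replicate 3. For SLC44A5 and TNR the induced arrays lay above all control arrays although the difference did not pass, so a missed threshold does not show equal change.

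Genes with several probe sets gave a further view of the same arrays. Of the 2331 genes called between t = 0 and induced t = 48, 1340 had other kept probe sets, and in 958 of these all the others had the same sign. In 10 genes another probe set passed in the opposite direction. EMC3 read -0.46 on its brightest probe set and 1.11 on another, and MED23 read 0.47 and -1.22. LTBP3, RPH3AL and GRHL1 were split in the same way, and these 5, the most widely split of the 10, are given no direction here. In some genes named above only the brightest probe set passed. The others read -0.75 to 0.20 in JUN, -0.04 and -0.02 in FGF12 and -0.05 in GAL. In DLX6 they read -0.05 and 0.18, and in PDGFRA -0.18.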

How the data were processed

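RNA of 15 samples in 5 groups of 3 was measured on single-colour Affymetrix arrays with 54675 probe sets. The deposited values are MAS5 signals on a linear intensity scale, made by the authors with GCOS and MAS5, per the submitters' processing notes; their versions are not given in the sources used here. Each array's mean signal, trimmed by 2% at either end, was 100.01, so arrays were scaled to a common target before deposit. Array signals carry no read depth, and the number of arrays limits precision.

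Groups came from the sample titles. Gene names came from GEO's platform annotation: 41091 probe sets had 1 symbol, 1801 several, and 11721 were unlisted, and 41037 of those with 1 symbol matched RefSeq. Probe sets with several symbols or none were not named. Probe sets at or above the array median on at least 3 of 15 arrays were kept (25036 with 1 symbol), and the brightest stood for its gene, which gave 12880 genes. log2(signal + 5.16), where the offset is computed from the deposited values, was fitted with limma 3.58.1 (lmFit, eBayes) in R 4.3.3 over all 15 arrays with 5 group means (10 residual degrees of freedom), and p-values were adjusted by Benjamini-Hochberg. Tables and plots used Python 3.11.15, pandas 2.3.3 and matplotlib 3.10.9. On simulated data for induced t = 48 against t = 0 (12880 genes, 200 changed), 70% of genes changed 2-fold and 38% of those changed 1.41-fold were called, 2.7% of calls were unchanged genes, and 0 calls were made with none changed. The simulated noise was independent between genes and arrays, and 2331 genes passed in the data against 200 changed in the simulation. These rates may therefore not hold for the data.

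The comparison, gene lists and naming rule were chosen with earlier results of these data known. Named were the 15 largest rises and falls, up to 4 called members of each list, a set of lineage and MSX1-related genes, the 6 largest rises and falls among bright genes and among genes called alike in both cultures, and up to 5 with opposed probe sets. Members that moved against their list, and further called members given as examples of a list, were added after their values were seen. Alternatives covered the offset, scaling, filter, probe set choice, variance model, arrays fitted, replicate block, threshold and each array left out. Promoter sequences are RefSeq's for GRCh38.p14.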

Additional observations from a re-analysis of the deposited data

Results flagged for a closer look

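The change from t = 0 to t = 48 differed between induced and control cells for 1101 genes in limma's test of the difference itself. This difference is the same as that between the cultures at t = 48, and 678 of the genes were higher and 423 lower in induced cells. HEY1 differed by 4.25, LMO4 by -2.35 and ENPP2 by 3.02. What in the induced cultures set them apart was not tested, since no doxycycline-treated cells without the inducible gene were measured.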

How the results depend on the processing

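Of 226 named genes 221 passed between t = 0 and induced t = 48. Of these, 135 kept their direction and call under every alternative that tested them, of 20 in all. Some of them, such as ADAMTS8, COL6A3 and GABRP, were tested under 19, since a filter on at least 8 arrays removed them. The call was lost without some 1 array for 54. The count of 2331 genes became 1117 with the 2 groups fitted alone and 1025 at an adjusted p below 0.01, and 1505 to 1968 with 1 array left out. For control cells the count of 109 became 56 without a filter, 0 with the 2 groups fitted alone and 41 at the stricter threshold, and 33 to 88 with 1 array left out. For induced against control cells the count of 1101 became 684, 617 and 441 under these settings in turn, and 625 to 816 with 1 array left out. Other counts stayed within 1.5 times. Centring arrays on their median turned the split of calls against t = 0 from 1275 higher and 1056 lower to 939 and 1519, and that between the cultures from 678 and 423 to 522 and 504.

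With the replicate number as a block, 2039 genes passed against t = 0, 84 in control cells and 899 between the cultures. The numbers do not pair the arrays: same-numbered t = 0 and induced arrays had correlated deviations of -0.0859 to -0.0171, and 3 of 30 same-numbered pairs exceeded 0.1.

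MYCN, which did not pass, read -0.041 after median centring and -0.0901 as the mean of its probe sets. Without the arrays with a weak bioC control it read -0.0078, as it did without induced replicate 3. With 1 array left out it read -0.0128 to 0.1004, the lowest without t = 0 replicate 2. Taken as the mean of the kept probe sets, 29 of the 221 named genes that passed kept their direction but lost the call. As the mean of their probe sets, EED read 0.0066, EMC3 0.0625, GRHL1 -0.123, LTBP3 -0.014, MED23 -0.0917 and RPH3AL -0.2539. The mean differs there by construction, since their probe sets disagree. Dim genes near the background level limit how well a fold change is known.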
